A study of Mus musculus with 170 samples.

Results

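The genes described here encode the nuclear subunits of respiratory complex III and of ATP synthase, together with cytochrome c. They were chosen by symbol: every gene of the table whose symbol begins with Uqcr or Atp5, plus Cyc1 and Cycs, without pseudogene entries. The rule found 27 of the 40549 genes in the table, namely 9 complex III genes (Cyc1, Uqcr10, Uqcr11, Uqcrb, Uqcrc1, Uqcrc2, Uqcrfs1, Uqcrh, Uqcrq), Cycs, and 17 genes with an Atp5 symbol. Transcripts were measured by Smart-seq2, a full-length single-cell RNA-seq method that primes on poly(A) tails, in hand-picked cells from the ventricular part of the heart of C57BL/6 mouse embryos at embryonic day 9.5. Control cells, labelled wild type, came from Dgcr8 loxP/loxP; ROSA26 mT/mG/+ embryos without Cre, according to the study's text. Conditional knockout (cKO) cells are labelled Mesp1Cre/+; Dgcr8-/-, which in the study's text stands for Mesp1 Cre/+ with the same floxed Dgcr8 and reporter alleles. The control therefore lacked Cre as well as the deletion. Mesp1-Cre acts in early mesoderm progenitors and their descendants, so in cKO hearts it is not limited to cardiomyocytes (CMs). Dgcr8 encodes the partner of Drosha in the complex that releases microRNA hairpins from their primary transcripts.

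Complex III takes electrons from ubiquinol and hands them, through the Rieske iron-sulfur protein and cytochrome c1, to cytochrome c, a small soluble carrier that delivers them to complex IV. ATP synthase uses the proton gradient built by the chain: protons turn a ring of c subunits in the inner membrane, the ring turns a central stalk, and the stalk drives the catalytic head, while a peripheral stalk holds the head still. Both complexes combine nuclear subunits with subunits made from the mitochondrial genome. The heart tube beats continuously from before the stage studied, and its muscle becomes rich in mitochondria as it matures.

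Subunit c is the member for which sequence matters most, because 3 genes, Atp5g1, Atp5g2 and Atp5g3, supply the same mature protein. Reads from the part that encodes it must be told apart by silent differences. The last 75 codons of each gene encoded an identical stretch of protein, and the bases differed at 57 positions, which are shown in capitals. All 3 stretches were read from GRCm38 with the GENCODE vM21 annotation, lie on the minus strand and span 2 coding exons. They are at chr11:96073107-96073635 for Atp5g1, chr15:102663017-102665166 for Atp5g2 and chr2:73908596-73909296 for Atp5g3.
Atp5g1: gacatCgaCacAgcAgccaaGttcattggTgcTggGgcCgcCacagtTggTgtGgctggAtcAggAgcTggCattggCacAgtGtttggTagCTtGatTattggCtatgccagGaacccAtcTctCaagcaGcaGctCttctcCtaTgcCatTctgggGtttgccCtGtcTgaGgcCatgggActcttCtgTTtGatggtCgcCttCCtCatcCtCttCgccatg
Atp5g2: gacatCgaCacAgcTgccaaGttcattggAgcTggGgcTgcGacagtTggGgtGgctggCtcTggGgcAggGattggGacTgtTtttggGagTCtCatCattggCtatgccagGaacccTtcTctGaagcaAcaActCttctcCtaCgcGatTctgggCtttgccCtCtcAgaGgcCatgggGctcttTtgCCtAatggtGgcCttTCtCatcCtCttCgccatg
Atp5g3: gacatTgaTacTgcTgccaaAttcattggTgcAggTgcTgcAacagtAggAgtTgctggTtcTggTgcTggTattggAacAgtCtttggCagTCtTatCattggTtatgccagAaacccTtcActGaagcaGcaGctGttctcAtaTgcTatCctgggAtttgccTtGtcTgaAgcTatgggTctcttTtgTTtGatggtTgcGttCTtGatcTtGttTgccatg

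Identity over the stretch was 84.9% between Atp5g1 and Atp5g2, 80% between Atp5g1 and Atp5g3 and 78.7% between Atp5g2 and Atp5g3. The longest run of bases shared by the transcripts was 21 for Atp5g1 and Atp5g2, 11 for Atp5g1 and Atp5g3, and 8 for Atp5g2 and Atp5g3. The 3 genes are thus separable in sequence, although several members have processed pseudogene copies whose reads the quantification could have split.

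Promoters were searched for motifs of 2 kinds of regulator known to act on respiratory chain genes, nuclear respiratory factor 1 (NRF1, letters GCGCA, any base, then GCGC) and ETS factors such as GABPA (letters CCGGAAG). Both strands were searched in the 300 bases from 250 before to 50 after each gene's RefSeq start site (GRCm38.p6). A window was matched for 22 of the 27 members, and Cyc1, Uqcrb, Uqcrc2, Uqcrq and Atp5a1 had none. The NRF1 letters were in 7 of the 22 windows (31.8%), in 5.19% of the windows of 27025 genes, and in 16.5% of those of 788 genes that were abundant in CM-like cells. The ETS letters were also in 7 of the 22 (31.8%), against 9.93% of all and 26.5% of the abundant genes. The NRF1 matches were in Uqcrc1, Atp5c1, Atp5g2, Atp5g3, Atp5h, Atp5k and Atp5o, the ETS matches were in Uqcr11, Uqcrh, Atp5e, Atp5h, Atp5j, Atp5k and Atp5l, and no match of one overlapped the other. The lines below give 6 of the sites upstream of a start site, 3 of each kind, with 10 bases on either side and the motif or its reverse complement in capitals.
Atp5g2 (NRF1, chr15:102671070-102671099, minus strand): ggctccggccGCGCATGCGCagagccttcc
Atp5k (NRF1, chr5:108434430-108434459, minus strand): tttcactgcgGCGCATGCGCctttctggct
Atp5h (NRF1, chr11:115420041-115420070, minus strand): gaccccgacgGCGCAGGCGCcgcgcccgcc
Uqcr11 (ETS, chr10:80406871-80406897, minus strand): tctctcctccCCGGAAGtagatgtcaa
Atp5e (ETS, chr2:174464187-174464213, minus strand): acggccacagCTTCCGGtagccgctcg
Atp5j (ETS, chr16:84835021-84835047, minus strand): gctgagggacCCGGAAGcacttaccct

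Of 74 control cells in the table, 35 belonged to batch 1 and 39 to batch 2, and of 69 cKO cells, 35 and 34, where a batch is a sequencing batch named in the labels. The labels name no embryo, so each genotype was 1 sample, cells were not counted as replicates, and every difference between genotypes or classes is given without a test. Values are in TPM, a transcript abundance corrected for transcript length and scaled to a fixed total per cell, which keeps no sequencing depth. A level below is the mean log2(TPM + 1) over cells, a difference is one level minus another, and an SD is the scatter across cells. Ward clustering on 55 marker genes, none of them a member, gave 92 CM-like cells (25 control and 67 cKO, with 15 of 15 CM markers raised, that is higher than in the remaining cells by 1 or more on the log2 scale), 22 endothelial-like and 13 epicardial-like control cells, 5 erythroid-like control cells, and 11 unnamed cells (9 control and 2 cKO). The epicardial-like cells also had 8 of 14 mesenchymal markers raised. Only 7 of the control CM-like cells were in batch 2. The study's own CM marker list holds the members Atp5o, Uqcr10 and Atp5g3, and it was not used here.

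Several measures moved together with genotype in the CM-like cells, and their part in the results was not tested. Dgcr8 itself, the targeted gene, had a median of 1.45 TPM in control and 0.00 TPM in cKO CM-like cells, with ranges of 0.00 to 449.5 and 0.00 to 207 TPM. The median number of detected genes was 9316 in control and 8650 in cKO cells, but the order turned between batches (8477 against 9798 in batch 1 and 9826 against 7786 in batch 2). The median share of TPM from the mitochondrial genome was 6.24% in control and 3.00% in cKO cells. Xist had a median of 27.7 TPM in cKO and 0.0476 TPM in control CM-like cells and Ddx3y of 0.00 and 14.5 TPM, so genotype and sex of the embryos cannot be told apart. The summed TPM of the 13 endothelial markers had a median of 17.3 (range 1.82 to 267) in control and of 51.8 (2.76 to 412) in cKO CM-like cells. Cdh5, Kdr, Tek, Emcn, Esam, Cldn5, Nfatc1, Plvap and Ecscr were at 0 in most cells of both genotypes. Egfl7 and Npr3 were so only in cKO cells, and Pecam1 and Tie1 in neither. Of the 13, 2 in control and 1 in cKO cells had at least 1 TPM in most cells. The 14 mesenchymal markers summed to a median of 432 TPM (119 to 1052) in control and 644 TPM (107 to 2237) in cKO cells. The medians were 25.95 and 34.8 TPM for the 6 epicardial markers (at most 533 and 454) and 3.19 and 9.49 TPM for the 7 erythroid markers (at most 357 and 816). The 15 CM markers themselves summed to a median of 70310 TPM in control and 91900 TPM in cKO cells.

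In CM-like cells, 24 of the 27 members were lower in cKO than in control cells by at least 0.5 on the log2 scale and lower in both batches, the rule by which a gene was called lower. The same rule called 18.3% of all 15035 genes tested lower and 11.6% higher. Most members are abundant genes, and abundant genes were called lower more often: 39% of 1064 genes with a level of at least 6 were called lower and 16.9% higher. Of the 459 of those with transcripts under 1000 bases, a background chosen after the data were seen, 51% were called lower and 9.37% higher. Of the 27 members, 17 belong to that last set and 16 of them were called lower, 8 are abundant with longer transcripts and 6 of them were called, and Atp5s and Atp5sl, both called, are not abundant. Length here is the median over a gene's annotated protein-coding transcripts and need not be that of the transcript expressed. It was 533 bases for Uqcrc1 and 2675.5 for Atp5g1, whose coding sequence has 411, so the length sets are rough. All 9 complex III genes were called lower, with a median difference of −0.86 (−0.50 in batch 1 and −1.18 in batch 2), against 0.01 over all genes (0.12 and −0.34) and −0.52 over the abundant genes with short transcripts (−0.30 and −0.81). Of the 17 ATP synthase genes, 14 were called lower and none higher, with a median of −0.89 (−0.63 and −0.98). Without Atp5s and Atp5sl, which are named for ATP synthase but are not subunits of it, 12 of 15 were called and the median was −0.88. Cycs differed by −0.81 (−0.70 and −1.04). The exceptions were Atp5a1, Atp5b and Atp5d, all of the F1 part.

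The call rests on which cells count as CM-like. When the tree was divided into 4 clusters, 9 control and 2 cKO cells of the unnamed cluster joined the CM-like class, and the number of members called lower was 3, with median differences of 0.32 for complex III and −0.06 for ATP synthase. These 11 cells were led by mitochondrial transcripts, had a median of 50.7% of TPM from the mitochondrial genome and 5728 detected genes, and had 1 of 15 CM markers raised. With the same 4 clusters and only cells under 10% mitochondrial TPM, 21 members were called lower, with medians of −0.77 and −0.63.

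**Figure D1:**
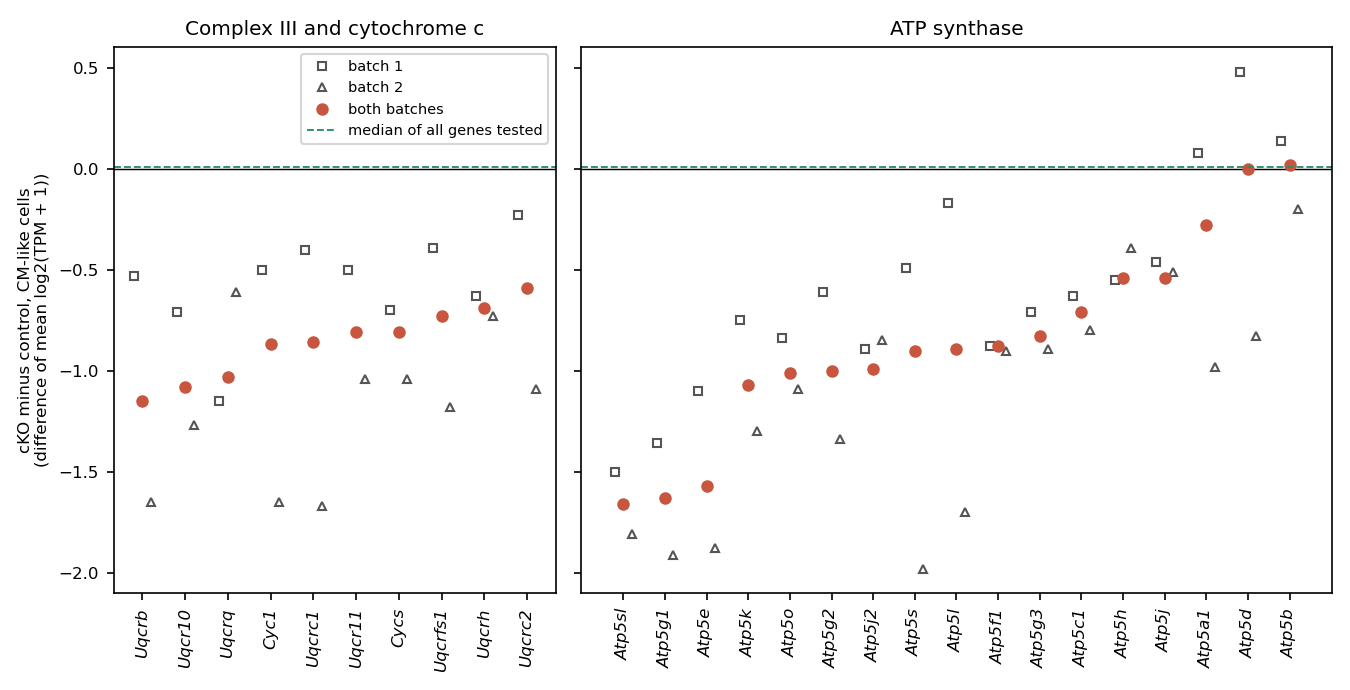
Difference between cKO and control CM-like cells for each of the 27 members (vertical axis, log2 units), for 67 cKO and 25 control cells of both batches (filled circles) and within batch 1 (squares) and batch 2 (triangles); the dashed line is the median of all genes tested, 0.01. Every complex III gene lies below 0 in both batches, and Atp5a1, Atp5b and Atp5d lie above 0 in batch 1 and below 0 in batch 2.

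The core of complex III, which anchors the dimer, is built from Uqcrc1 and Uqcrc2. Uqcrc2 (chr7:120635176-120659524) had the smallest difference of the complex. It had 10.6, 345 and 803 TPM (lowest, median and highest) in control CM-like cells and 0.973, 231 and 997 TPM in cKO cells. The medians were 317 and 255 TPM in batch 1 and 362 and 207 TPM in batch 2. The ranges overlapped, with 3 of 67 cKO cells below every control cell, and the levels of 8.21 ± 1.17 (SD) and 7.61 ± 1.48 differed by −0.59 (−0.23 in batch 1 and −1.09 in batch 2). Uqcrc1 differed by −0.86, with −0.40 in batch 1 and −1.67 in batch 2. Counts of cKO cells below control cells, here and for the genes that follow, were not made over all genes. In batch 2 the count below every control cell rests on 7 control cells.

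Cyc1 and Uqcrfs1 carry the electrons out of the complex. Cyc1 (chr15:76343523-76346260), cytochrome c1, had 92.2, 836 and 1452 TPM in control and 2.41, 444 and 1143 TPM in cKO CM-like cells. In batch 1 its medians were 678 and 497 TPM, and in batch 2 they were 1086 and 415 TPM. The genotypes overlapped widely in batch 1, whereas 30 of 33 cKO cells of batch 2 lay below all 7 control cells. The difference was −0.87 (−0.50 and −1.65). Uqcrfs1, the Rieske iron-sulfur protein, differed by −0.73 (−0.39 and −1.18).

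Of the small subunits around the core, Uqcrb, Uqcr10 and Uqcrq had the largest differences of the complex, while Uqcr11 and Uqcrh differed less than Cyc1. Uqcrb (chr13:66900617-66905378), a small subunit on the matrix side, had 209, 1013 and 1863 TPM in control cells and 0.00, 695 and 4681 TPM in cKO cells. Its median in batch 1 was 1043 TPM in control and 782 TPM in cKO cells, and in batch 2 it was 802 and 545 TPM. It was listed at 0 in 2 cKO cells of batch 2, while the highest single cell was also cKO, so its level of 8.76 ± 2.17 in cKO cells scattered far more than the 9.91 ± 0.61 of control cells. Its difference was −1.15 (−0.53 and −1.65).

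Uqcr10 (chr11:4701973-4704342), a small transmembrane subunit, was the most abundant gene of the complex in control CM-like cells. It had 699, 2064 and 3830 TPM there and 18.2, 1084 and 2158 TPM in cKO cells. All 34 cKO cells of batch 1 and all 33 of batch 2 lay below the control median of their batch. The medians were 2176 and 1369 TPM in batch 1 and 1508 and 734 TPM in batch 2, and the difference was −1.08 (−0.71 and −1.27).

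Uqcrq (chr11:53427922-53430831), a subunit close to the ubiquinone site, had 688, 1119 and 3757 TPM in control and 114, 643 and 2207 TPM in cKO cells. Of the 27 members it lay most often under the whole control range of both batches, in 35 of 67 cKO cells (52.2%, 95% interval 39.7 to 64.6%, exact Clopper-Pearson, counting error only). Its difference of −1.03 was larger in batch 1 (−1.15, medians of 1323 and 715 TPM) than in batch 2 (−0.61, medians of 809 and 623 TPM).

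Uqcr11 (chr10:80402997-80406830), the smallest accessory subunit, was second in abundance. It had 382, 1887 and 3216 TPM in control and 28.5, 1188 and 2815 TPM in cKO cells, with medians of 2003 and 1588 TPM in batch 1 and of 1808 and 765 TPM in batch 2. The ranges overlapped, with 2 of 67 cKO cells below all control cells, and the difference was −0.81 (−0.50 and −1.04). Uqcrh, the hinge protein that helps cytochrome c1 meet cytochrome c, differed by −0.69 (−0.63 and −0.73), the most even of the complex between batches.

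Cycs (chr6:50562563-50566538) encodes cytochrome c, which besides carrying electrons triggers caspase activation when released from mitochondria. It had 17.7, 318 and 578 TPM in control and 4.09, 167 and 386 TPM in cKO CM-like cells. The medians were 314 and 209 TPM in batch 1 and 318 and 150 TPM in batch 2, and 29 of 33 cKO cells of batch 2 lay below all 7 control cells. One control cell of batch 1 lay far below the rest, so that across both batches 1 of 67 cKO cells was below every control cell.

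**Figure D2:**
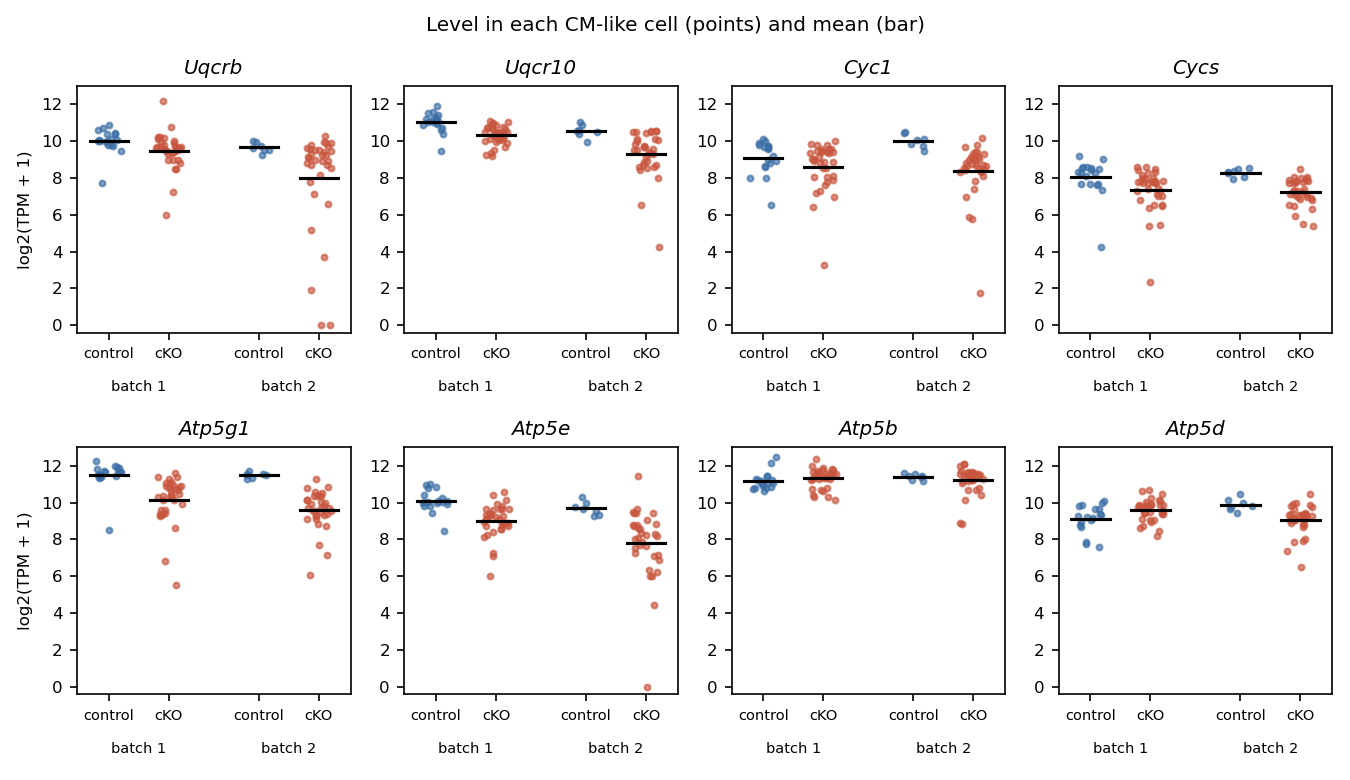
Level of 8 members in each CM-like cell (vertical axis, log2(TPM + 1)), by genotype and batch, with blue points for control cells (18 in batch 1 and 7 in batch 2), red points for cKO cells (34 and 33) and a bar for the mean. For Atp5g1 the batch 2 control range of 2529 to 3389 TPM lies above all 33 cKO cells while batch 1 overlaps, and Atp5b and Atp5d overlap.

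ATP synthase differed by part. The 2 genes of the catalytic head, Atp5a1 and Atp5b, had a median difference of −0.13 and no call. The 3 genes of the central stalk had a median of −0.71 with 2 called, the 3 c ring genes −1.0 with 3 called, the 4 peripheral stalk genes −0.71 with 4 called, and the 3 small membrane subunits −0.99 with 3 called. The differences among these parts rest on a few genes each and were not tested.

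Atp5b (chr10:128083273-128090391), the catalytic β subunit, was second in abundance among the ATP synthase genes of control CM-like cells and was the most abundant in cKO cells. It had 1579, 2387 and 5749 TPM in control and 460, 2775 and 5359 TPM in cKO cells, medians of 2113 and 2751 TPM in batch 1, and of 2767 and 2778 TPM in batch 2. Of 67 cKO cells, 49 lay above the control median. The difference was 0.02 (0.14 in batch 1 and −0.20 in batch 2). Atp5a1, the α subunit that alternates with β in the head, differed by −0.28, with 0.08 in batch 1 and −0.98 in batch 2.

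The central stalk turns inside the head. Atp5d (chr10:80138632-80145818), its δ subunit, had 190, 685 and 1442 TPM in control and 91.2, 672 and 1659 TPM in cKO cells. In batch 1 the cKO median was the higher (864 against 607 TPM) and in batch 2 the lower (625 against 911 TPM). The difference was 0.00 over both batches, 0.48 in batch 1 and −0.83 in batch 2.

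Atp5e (chr2:174461072-174464105), the small ε subunit of the same stalk, was lower in both batches. It had 353, 1027 and 2103 TPM in control and 0.00, 433 and 2773 TPM in cKO cells, with medians of 1065 and 552 TPM in batch 1 and of 803 and 289 TPM in batch 2. In batch 2, 27 of 33 cKO cells lay below all control cells, while the highest cell of either genotype was cKO. The difference was −1.57 (−1.10 and −1.88). Atp5c1, the γ subunit that forms the shaft, differed by −0.71 (−0.63 and −0.80).

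The c ring held the most abundant member in control cells and the largest difference of any ATP synthase subunit. Atp5g1 (chr11:96068852-96075670) had 363, 3018 and 4934 TPM in control CM-like cells and 45.6, 1113 and 3080 TPM in cKO cells. In batch 1 the medians were 3268 and 1360 TPM, and in batch 2 they were 2950 and 837 TPM. All 34 cKO cells of batch 1 lay below the control median of that batch, and all 33 of batch 2 lay below the lowest of the 7 control cells. How many genes separate in this way was not counted. In batch 2 the median difference was −0.34 over all genes tested and −0.65 over the abundant ones. The Atp5g1 levels were 11.50 ± 0.66 and 9.88 ± 1.18, a difference of −1.63 (−1.36 and −1.91).

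The other 2 subunit c genes were lower by less. Atp5g2 (chr15:102662864-102672352) had 266, 565 and 852 TPM in control and 0.00, 379 and 833 TPM in cKO cells, with medians of 597 and 460 TPM in batch 1 and of 491 and 282 TPM in batch 2. Its difference was −1.0 (−0.61 and −1.34), and 2 cKO cells were listed at 0. Atp5g3 (chr2:73908447-73911326) had 355, 916 and 1723 TPM in control and 4.32, 585 and 1372 TPM in cKO cells, with medians of 920 and 688 TPM in batch 1 and of 796 and 440 TPM in batch 2. Its difference was −0.83 (−0.71 and −0.89).

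Because the 3 genes encode one protein, their mix can be expressed as shares of the summed subunit c TPM in a cell. In control CM-like cells the mean shares were 66.5% ± 10.6 (SD over 25 cells) for Atp5g1, 12.7% ± 4.65 for Atp5g2 and 20.8% ± 7.13 for Atp5g3. In 67 cKO CM-like cells they were 52.8% ± 14.4, 18.04% ± 9.39 and 29.2% ± 14.02. The Atp5g1 share was 65.7% and 53.4% in control and cKO cells of batch 1 and 68.6% and 52.2% in those of batch 2, so its order held in both, although the cells overlapped. Under the 9 other settings tried for it, including the 4 clusters, the Atp5g1 share was lower in cKO cells by between 12.3 and 16.4 percentage points.

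**Figure D3:**
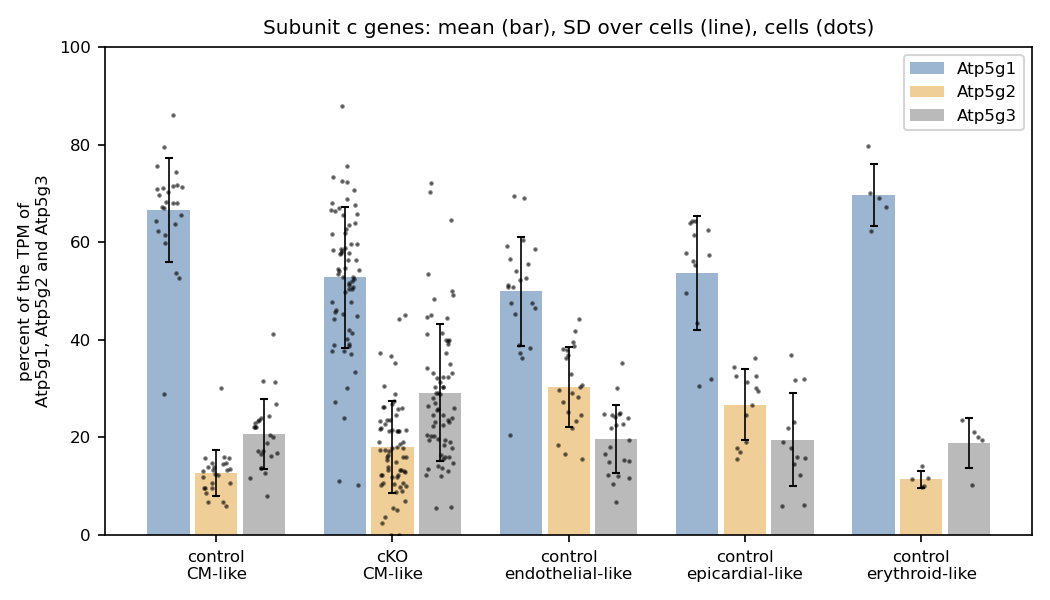
Share of each subunit c gene in the summed TPM of Atp5g1, Atp5g2 and Atp5g3 (vertical axis, percent), with bars for the mean over cells, lines for the SD and dots for cells. Control CM-like cells average 66.5% Atp5g1, cKO CM-like cells 52.8% and control endothelial-like cells 49.9%.

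All genes of the peripheral stalk and the membrane subunits were called lower, Atp5h and Atp5j only just. The median of abundant genes with short transcripts was −0.52 (−0.30 in batch 1 and −0.81 in batch 2), near the values of Atp5h and Atp5j. In the stalk, Atp5o, which seats the stalk on the head, differed by −1.01 (−0.84 and −1.09), Atp5f1, its b subunit, by −0.88 (−0.88 and −0.90), Atp5h, its d subunit, by −0.54 (−0.55 and −0.39), and Atp5j, coupling factor F6, by −0.54 (−0.46 and −0.51). In the membrane, where small subunits hold dimers of the enzyme together, Atp5j2 differed by −0.99 (−0.89 and −0.85) and Atp5l by −0.89. The Atp5l value came mostly from batch 2 (−1.70, against −0.17 in batch 1), where 3 of 33 cKO cells were listed at 0. Atp5k (chr5:108433244-108434448), the e subunit, had 178, 460 and 1236 TPM in control and 0.00, 274 and 1161 TPM in cKO cells. Its medians were 467 and 294 TPM in batch 1 and 406 and 186 TPM in batch 2, and its difference was −1.07 (−0.75 and −1.30).

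Atp5s and Atp5sl were the only members with a level under 7 in control CM-like cells. Atp5sl (chr7:25619414-25625551), listed as Dmac2 in RefSeq and known as an assembly factor of complex I, had 0.00, 26.96 and 489.9 TPM in control and 0.00, 0.307 and 253 TPM in cKO cells. It was above 0 in 22 of 25 control cells (88.0%, interval 68.8 to 97.5%) and in 36 of 67 cKO cells (53.7%, interval 41.1 to 66%). The medians were 26.2 and 0.331 TPM in batch 1 and 26.96 and 0.00 TPM in batch 2. Its difference of −1.66 (−1.50 and −1.81) was the largest of the 27, at a low level where dropout weighs on the mean. Atp5s, a coupling factor entry listed as Dmac2l, was above 0 in 16 of 25 control and 25 of 67 cKO cells and differed by −0.90 (−0.49 and −1.98).

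Summed over its genes, complex III took 1.04% ± 0.203 (SD over cells) of all TPM in control and 0.649% ± 0.199 in cKO CM-like cells. The values were 1.07% and 0.754% in batch 1 and 0.937% and 0.541% in batch 2. ATP synthase genes took 1.95% ± 0.257 and 1.30% ± 0.324, with 2.00% and 1.43% in batch 1 and 1.83% and 1.17% in batch 2. Among cKO cells, 66 of 67 had a mean complex III level below the control median, and 11 of 67 (16.4%, interval 8.49 to 27.5%) were below every control cell, 2 of 34 in batch 1 and 32 of 33 in batch 2 when compared within their batch. For ATP synthase 65 of 67 were below the control median and 28 of 67 (41.8%, interval 29.9 to 54.5%) below every control cell, 9 of 34 and 29 of 33 within batches. No such share was formed for other sets of genes.

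The cKO cells were also more unequal in these genes. The SD across cells was larger in cKO than in control CM-like cells for 23 of the 27 members, a count not made over all genes. A cell's mean complex III level ran from 4.79 to 10.1 in cKO and from 8.45 to 10.2 in control cells. The cKO cell at 4.79 had 20.6% of its TPM from the mitochondrial genome, and the control cell at 8.45 had 17.6%. Across the 67 cKO cells the complex III and ATP synthase means were correlated with Pearson's r = 0.85 and Spearman's rho = 0.81, and across the 25 control cells with r = 0.63 and rho = 0.19. Both means share a cell's library and its scaling. With the number of detected genes, complex III and ATP synthase had r = 0.43 and 0.45 in cKO and 0.32 and 0.28 in control cells. In the 7 control cells of batch 2, complex III had r = 0.08 with ATP synthase and −0.05 with the share of mitochondrial TPM. Over both batches, both means were lower where the share of mitochondrial TPM was higher. For complex III that correlation was r = −0.85 and rho = −0.70 in control cells and r = −0.64 and rho = −0.20 in cKO cells, and for ATP synthase it was r = −0.43 and rho = −0.16 in control cells and r = −0.70 and rho = −0.27 in cKO cells. Each member's correlation with the mean of the others ranged from 0.22 to 0.74 over cKO cells, with Atp5g1 highest, and from −0.43 to 0.65 over control cells, with Uqcr11 highest and Atp5k lowest.

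**Figure D4:**
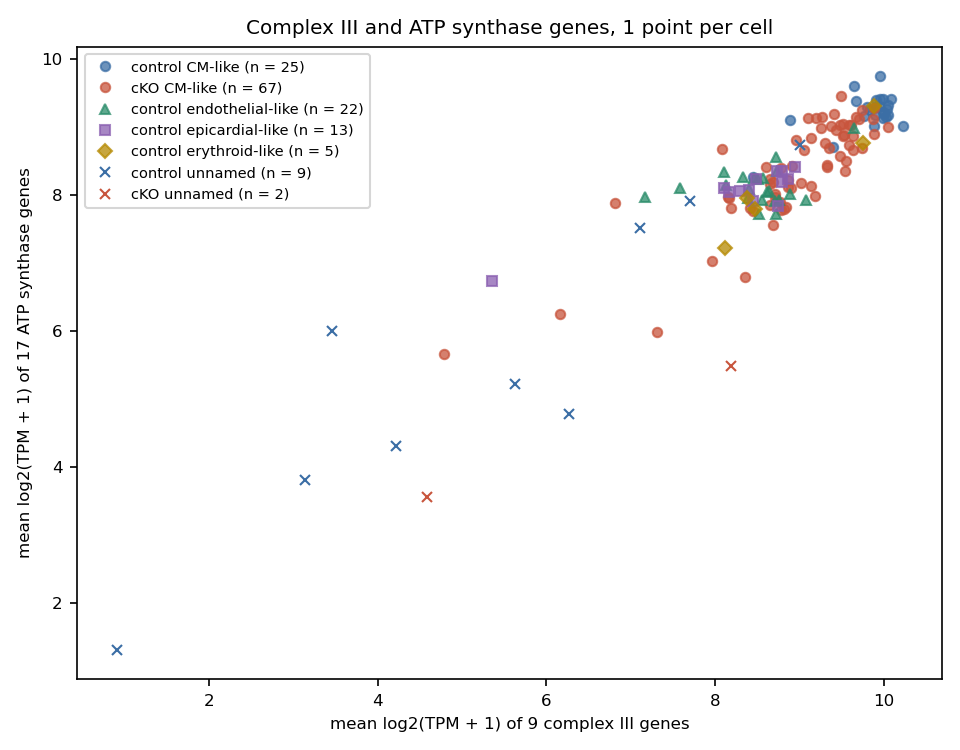
Mean level of 9 complex III genes (horizontal axis) against that of 17 ATP synthase genes (vertical axis), both in log2(TPM + 1), with 1 point per cell. CM-like cells (circles) and unnamed cells (crosses) are blue for control and red for cKO. The other classes, all control, each have their own colour and shape. Control CM-like cells lie between 8.45 and 10.2 on the horizontal axis, cKO CM-like cells extend down to 4.79, and the 11 unnamed cells (crosses) lie mostly lower.

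Control cells of other classes gave a measure of how far the members vary between cell classes of 1 genotype. Their cells were unevenly split between batches, with 18 and 7 CM-like, 7 and 15 endothelial-like and 4 and 9 epicardial-like cells. The endothelial-like cells, which line the chambers and vessels, had a median complex III difference from control CM-like cells of −1.37 (−1.19 in batch 1 and −1.38 in batch 2), with 7 of 9 genes lower by at least 1 and in both batches; that rule called 9.53% of 13041 genes lower, 13% of the abundant ones and 18.5% of the abundant ones with short transcripts. ATP synthase differed by −1.05 (−1.07 and −1.16) with 10 of 17 called, and Cycs by −1.34. The epicardial-like cells, which cover the heart, differed by −1.45 for complex III with 9 of 9 called, by −1.14 for ATP synthase with 10 of 17 called, and by −1.16 for Cycs, where 9.16% of 11792 genes were called lower, 12.4% of the abundant ones and 16.4% of those with short transcripts. The pooled mean of each of the 27 members was higher in control CM-like cells than in either class. Of all genes tested, 4814 of 13041 were lower by any amount in endothelial-like and 4540 of 11792 in epicardial-like cells. Atp5g2 differed by only −0.03 in endothelial-like cells (0.03 in batch 2). Within batch 1 the order was reversed for Uqcrc1 in endothelial-like cells (0.13) and for Atp5s in epicardial-like cells (1.55).

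The members that set CMs apart from the other classes were not all those that set control apart from cKO CMs. Atp5b, at 11.25 in control and 11.27 in cKO CM-like cells, was 10.09 in endothelial-like and 9.70 in epicardial-like cells. Atp5d was at 9.34 in both genotypes when the batches, which had opposite signs, were pooled. It was at 8.56 and 8.72 in the other classes, and these differences of −0.78 and −0.62 were too small to be called. Atp5g2 showed the reverse, with 9.06 in control CM-like and 9.03 in endothelial-like cells but 8.06 in cKO CM-like cells. Atp5e was at 8.42 in cKO CM-like cells, below the 9.20 of endothelial-like and the 8.76 of epicardial-like cells. For 21 of the 27 members the cKO CM-like mean was above that of control endothelial-like cells, a count not made over all genes. These comparisons share the control CM-like cells.

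The subunit c mix also differed by class. Atp5g2 supplied 30.4% ± 8.24 of subunit c TPM in endothelial-like cells and 26.7% ± 7.22 in epicardial-like cells, against 12.7% ± 4.65 in control CM-like cells, while Atp5g3 was at 19.7%, 19.5% and 20.8%. The ranges of the Atp5g2 share were 15.5 to 44.2% in endothelial-like and 5.97 to 30.1% in control CM-like cells, so they overlapped. The 5 erythroid-like cells, all of batch 2, had 69.7% ± 6.41 Atp5g1 and 11.4% ± 1.71 Atp5g2. Complex III and ATP synthase took 0.449% and 0.869% of TPM in endothelial-like cells, 0.411% and 0.836% in epicardial-like cells and 0.601% and 1.07% in erythroid-like cells, whose lowest and highest values were 0.298% and 0.943% for complex III.

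**Figure D5:**
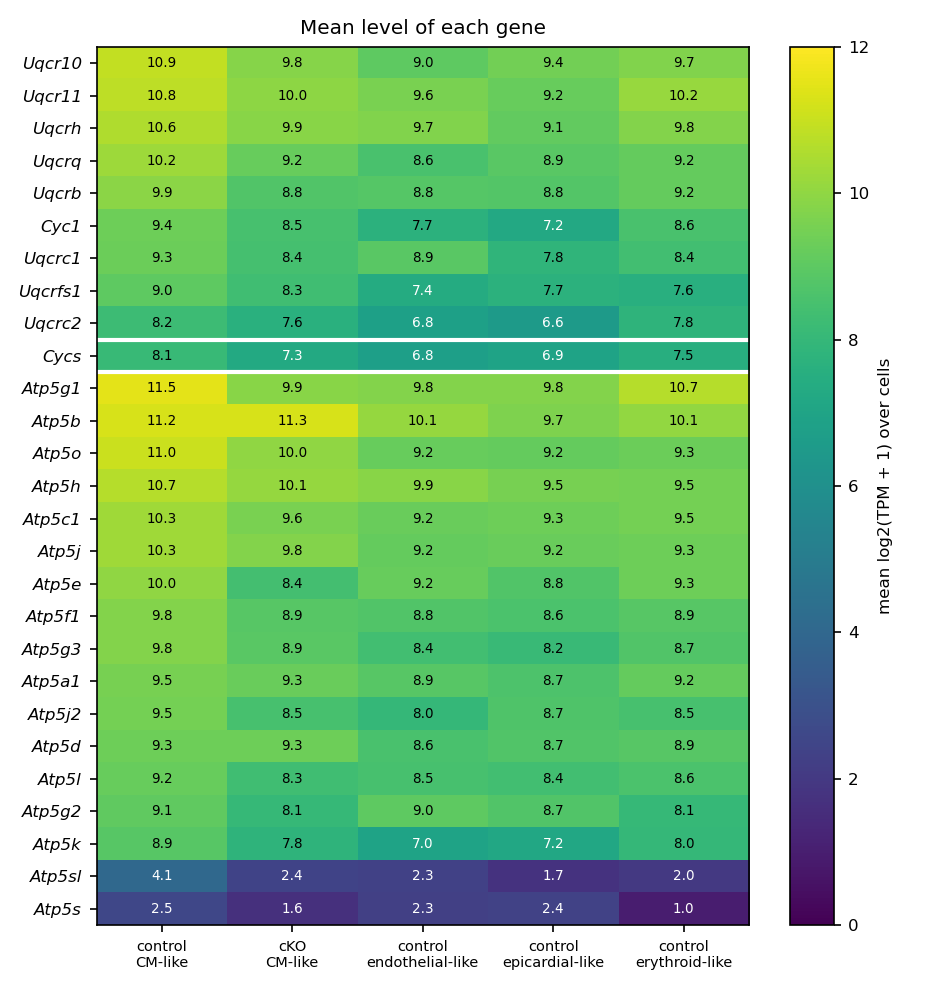
Mean level of each member (rows, ordered by level within complex III, Cycs and ATP synthase) in 5 sets of cells (columns), coloured and printed in log2(TPM + 1). The mean of every member over both batches is higher in control CM-like cells than in control endothelial-like and epicardial-like cells, though barely so for Atp5g2 in endothelial-like cells. Atp5b is at 11.3 in cKO CM-like cells, close to control.

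Most of the factors that build the complexes were also lower in cKO CM-like cells. Of 6 complex III assembly genes, 5 were called lower, with a median of −1.37. The same rule called 18.3% of all genes tested lower. Uqcc1 (−1.40), Uqcc2 (−1.34) and Uqcc3 (−1.97) act on cytochrome b, Bcs1l (−1.77) inserts the Rieske protein, and Lyrm7 (−1.09) guards it before insertion. Ttc19, which clears Rieske fragments, had −0.29 with −0.62 in batch 1 and 0.42 in batch 2. All but Uqcc2 had levels below 6, where many cells are at 0.

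Of the 6 genes that assemble or regulate ATP synthase, 4 were called lower, with a median of −0.92. The share was 18.3% over all genes tested and 39% over the abundant ones. Atpaf2, which binds free α subunit, differed by −2.55 (−2.09 and −2.92) and Atpaf1, which binds free β, by −1.14. The small associated membrane proteins 2010107E04Rik and Usmg5 differed by −0.97 and −0.56. Atpif1, the inhibitor that stops the enzyme from running backwards, had −0.12, and Tmem70, needed for the c ring, −0.86 with opposite signs in the batches.

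The partner subunits encoded in the mitochondrial genome were lower in cKO CM-like cells too, with 2 of 3 called and a median of −1.80. Over all genes tested 18.3% were called lower, and over the abundant ones 39%. The cytochrome b transcript mt-Cytb, the centre of complex III, had 2778, 8029 and 33910 TPM in control and 302, 2167 and 29120 TPM in cKO cells, a difference of −1.80 (−1.50 and −1.95). For ATP synthase, mt-Atp8 differed by −2.35 (−1.98 and −2.68) and mt-Atp6 by −0.71, with 0.24 in batch 1 and −1.97 in batch 2. These last 2 genes overlap, so their reads cannot be fully told apart. The control endothelial-like cells had the nuclear subunits lower but not these partners, with differences of 0.16 for mt-Cytb, 0.26 for mt-Atp8 and −0.05 for mt-Atp6. In epicardial-like cells the same values were 0.13, 0.30 and 1.11.

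The carriers that feed and empty the enzyme were mixed. Of 9 listed genes 7 were tested and 2 called lower, with a median of −0.21. Of all genes tested 18.3% were called lower, and of the abundant ones 39%, with a median of −0.28. As a list, the carriers thus did not stand out from abundant genes. Slc25a5, an ADP/ATP exchanger, differed by −1.57 (−1.08 and −2.29) and Slc25a3, the phosphate carrier, by −0.71, while Slc25a4, the exchanger typical of muscle, had −0.21. The outer membrane channels Vdac1, Vdac2 and Vdac3 had 0.24, −0.21 and −0.36, Hccs, which attaches heme to cytochrome c, had 0.20, and the germ-cell genes Cyct and Slc25a31 were listed at 0 in every CM-like cell.

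The regulators of respiratory genes had low levels and no common direction, with 3 of 9 called lower and 2 higher. Over all genes tested, 18.3% were called lower and 11.6% higher. The ETS factor genes Gabpa and Gabpb1 differed by −1.21 and −0.86 and the coactivator Ppargc1a by −0.68. Nrf1 was higher by 0.72 (0.73 and 0.33) and Ppargc1b by 1.09 (0.87 and 1.64). Tfam, Yy1, Pprc1 and Esrra had −0.50, −0.37, −0.21 and 0.18.

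The genes of complexes I and IV were picked by symbol alone, and a symbol need not mean a subunit of that complex. Of 38 genes with a complex I symbol, 25 were called lower and 1 higher, with a median of −0.66. Of 15 genes tested with a complex IV symbol, 8 were lower and 1 higher, with a median of −0.53. Of all genes tested 18.3% were called lower. Among abundant genes with short transcripts the share was 51% and the median −0.52, near the values for complex IV. The higher complex IV gene was Cox4i2, an alternative subunit, with a difference of 5.44 (5.61 and 4.46), the highest of all 15035 genes tested. For complex II, 3 of 4 genes were called lower (Sdha −0.68, Sdhb −1.09 and Sdhd −1.24), and Sdhc had −0.34 with opposite signs in the batches. The medians of −0.86 and −0.89 for complex III and ATP synthase stood beside these without a test of the difference.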

How the data were processed

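Single cells were grouped by genotype and sequencing batch from their titles. The deposited values are TPM. The authors quantified reads with Salmon on mm10 plus the reporter sequences; the Salmon version and annotation release are not given in the sources used here. Cells with a low share of mapped reads, or with a reporter at odds with their genotype, had been dropped by the authors. The reporter filter acts differently on control cells without Cre. Of 170 labelled samples, 143 had a column, and 27 were not analysed here. Sums over a cell ran from 996132 to 999999, so depth is unknown and gives no precision; amplified reads carried no molecular identifiers. Because TPM is scaled to the cell's total, abundant transcripts elsewhere lower the members.

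Values were transformed as log2(TPM + 1); the pseudocount understates differences of low genes. Cells were clustered by Ward linkage on z-scored levels of 55 markers into 5 clusters, named where at least 3 markers of a class were 1 log2 unit above all other cells and at a TPM of 1 or more in most cells, and no other class led the top 10 genes. All cells of the table were kept, and doublets were not called, since cells were picked by hand. Genes above 0 in more than 10 of the cells compared were used; all 27 members passed. A gene was called lower or higher in cKO cells at a pooled difference of 0.5 with the same sign in both batches (1 between classes). Members, lists and rules were chosen with earlier results of these data known. Every member was named; full values were given for the 4 largest same-sign differences, the 2 most abundant genes and the smallest difference of each complex, the 3 subunit c genes, Cyc1 and Cycs. Intervals are exact Clopper-Pearson at 95%. Alternatives varied the pseudocount, averaging, filter, scaling, centring, batch, clustering and cells; 3 that combine 4 clusters with another choice were added after the data were seen. As a check of the arithmetic only, the difference step returned known factors by which chosen genes had been multiplied. That check did not test the call rule or the effect of noise. Python 3.11.15, pandas 2.3.3 and scipy 1.17.1 were used.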

Additional observations from a re-analysis of the deposited data

Results flagged for a closer look

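For 3 members the difference between genotypes had opposite signs in the batches; the difference between batches was not tested. Atp5a1, cKO minus control CM-like cells, was 0.08 in batch 1 and −0.98 in batch 2, Atp5b 0.14 and −0.20, and Atp5d 0.48 and −0.83. Control CM-like cells of batch 2 were 7 in number and had higher levels of these genes (10.09, 11.41 and 9.90) than the 18 of batch 1 (9.33, 11.19 and 9.13).

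Among the 3 pseudogene entries left out by the rule, 2 had a higher mean in cKO than in control CM-like cells. Atp5l-ps1 averaged 0.154 TPM in cKO cells, with 3 of 67 above 0, and was at 0 in all 25 control cells. Atp5l-ps2 averaged 0.658 TPM in cKO cells, with 2 of 67 above 0 and 41.5 TPM in the highest, against 0.072 TPM in control cells. Atp5l2-ps averaged 0.326 TPM in cKO and 1.40 TPM in control cells.

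In the unnamed cells, which entered the comparisons with 4 clusters and with all cells but not the main ones, the mean complex III level was 6.39 in 2 cKO cells (4.58 and 8.19) and 5.27 in 9 control cells, which ranged from 0.903 to 9.01.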

How the results depend on the processing

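No paired analysis was possible because replicate numbers stand for single cells and no result comes from a test. The differences between genotypes depended mainly on the cells. With 4 clusters, complex III was 0.32, ATP synthase −0.06, Cycs 0.27 and the members called lower 3. With all cells of each genotype, whatever their class, the differences were 0.37, 0.10 and 0.31. With 4 clusters rescaled without the mitochondrial genome they were 0.17, −0.23 and 0.12 with 5 members called, and with 4 clusters and the median over cells ATP synthase was −0.58 and 13 members were called. With 4 clusters and under 10% mitochondrial TPM, ATP synthase was −0.63. Elsewhere the direction held: ATP synthase was −0.61 from the ratio of mean TPM and −0.63 in batch 1 alone, and 8 members were lower by at least 1. The complex III share of TPM differed by −0.39 percentage points, −0.32 in batch 1 and −0.20 with 4 clusters, and the ATP synthase share by −0.65, −0.58 in batch 1, −0.75 rescaled without the mitochondrial genome and −0.32 with 4 clusters.

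Members called lower that turned positive with 4 clusters were Cyc1 0.32, Uqcr10 0.13, Uqcr11 0.57, Uqcrb 0.08, Uqcrc1 0.42, Uqcrc2 0.43, Uqcrfs1 0.41, Uqcrh 0.15, Cycs 0.27, Atp5c1 0.19, Atp5g2 0.64, Atp5h 0.45, Atp5j 0.14 and Atp5l 0.21, and of those not called, Atp5a1 was 0.38. With all cells they were Cyc1 0.58, Uqcr10 0.37, Uqcr11 0.50, Uqcrc1 0.11, Uqcrc2 0.56, Uqcrfs1 0.55, Uqcrh 0.19, Uqcrq 0.16, Cycs 0.31, Atp5c1 0.10, Atp5g3 0.21, Atp5h 0.35, Atp5j 0.29, Atp5k 0.17 and Atp5o 0.33, and Atp5a1 was 0.34.

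Between control classes every difference stayed negative. For endothelial-like cells, complex III was −1.52 and −1.20 with pseudocounts of 0.1 and 10, −1.20 from mean TPM, −1.60 centred on all genes, −1.19 in batch 1, −0.28 with 4 clusters and −1.54 under 10% mitochondrial TPM. ATP synthase was −1.15 from medians over cells, −1.27 centred, −1.16 in batch 2, −0.15 with 4 clusters, −1.17 in clusters made without markers or members, −0.98 in cells with 7000 to 11000 detected genes and −1.12 under 10% mitochondrial TPM. For epicardial-like cells, complex III was −1.87 in batch 1 and −0.24 with 4 clusters. ATP synthase was −1.11 from mean TPM, −1.17 for genes with 1 TPM or more in most cells, −1.35 centred, −1.06 as the mean of batches, −0.24 with 4 clusters, −1.05 in cells with 7000 to 11000 detected genes and −1.11 under 10% mitochondrial TPM. Clusters made without markers or members held no epicardial-like cluster, so no value was given. Their endothelial-like cluster held 37 control cells, against 22 in the main clusters, so its value also covers cells from outside the main endothelial-like class. That depth is unknown and that batch 2 had 7 control CM-like cells limit all values.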

Other observations

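Among the genes listed for the neighbouring complexes, Ndufa4l2 was the 1 with a complex I symbol that was called higher in cKO CM-like cells. It was chosen after its value was seen, and its symbol does not make it a subunit of complex I. It encodes a relative of Ndufa4 that is known to respond to low oxygen. Its level was 0.71 ± 1.57 (SD over 25 cells) in control and 3.53 ± 3.28 (67 cells) in cKO cells, a difference of 2.82 (2.94 in batch 1 and 2.65 in batch 2), while Ndufa4 differed by −0.11. Of the muscle isoforms of complex IV, also chosen after their values were seen, Cox7a1 differed by −1.91 (−1.50 and −2.22) and Cox6a2 by −0.09.

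Transcript length, as the median over a gene's annotated protein-coding transcripts, was correlated with the difference between genotypes across genes. Genes are not independent replicates, and this length need not be that of the transcript expressed. Spearman's rho was 0.19 over 11962 genes, 0.36 over 974 abundant genes, 0.32 over the 9 complex III genes and 0.23 over the 17 ATP synthase genes. Its part in the members' differences was not tested.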
